A study of Mus musculus with 9 samples.

Results

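The 35 genes described here encode antioxidant, glutathione and detoxification proteins of the mouse that contain no selenium, together with the transcription factor NRF2 and its inhibitor KEAP1. They were taken as every gene of a fixed list of symbols to which the accession of a non-control probe on the array could be matched, which gave 35 genes of 32451 genes or accessions on the array, with 49 probes in all. All 35 entered the tests. This list and the other gene lists below were chosen with earlier results of these data known, so the shares of them called are descriptive. Their messenger RNA was measured in spleen of female BALB/c mice on 9 Agilent 1-colour arrays, 1 array for each sample and 3 for each group. The groups were normal Se GD (mice with Graves' disease on a normal dietary selenium supply), low Se GD (the disease with a low supply) and low Se non-GD (mice without the disease, also on a low supply). In Graves' disease the immune system makes antibodies that switch on the thyrotropin receptor of the thyroid. The sources used here do not give how the disease was brought about, what the diets held or how old the mice were. No group combined a normal supply with absence of the disease, so selenium supply could be compared in diseased mice alone, and normal Se GD differed from low Se non-GD in both disease and diet. Whether each sample of a group was a separate mouse is not in the labels, so all p-values rest on a spread that may be technical.

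NRF2, the product of Nfe2l2, is a transcription factor that KEAP1 holds in the cytoplasm and marks for degradation. Oxidants and electrophiles modify KEAP1, and NRF2 then enters the nucleus, pairs with a small MAF protein and binds antioxidant response elements near genes for glutathione synthesis, peroxide removal, NADPH supply and detoxification. Many of these proteins work beside the selenoproteins: glutathione peroxidases use glutathione that GCL and GSS make and GSR recycles, and thioredoxin reductases reduce the thioredoxins that serve the peroxiredoxins. In the spleen, red cells and their precursors and the macrophages that clear old red cells hold much of this machinery.

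A level is given throughout as log2 of an array's processed signal for a probe, relative to the 75th percentile of all non-control spots of that array. A difference is the log2 difference of group means with its standard error (SE), tested in limma over 26351 genes and called at an adjusted p (Benjamini-Hochberg) below 0.05. Each gene stands for its brightest probe, and levels of different genes are not comparable. The brightest probe of each of the 35 genes was well above background on all 9 arrays. The share of spots well above background was 58.4% on normal Se GD replicate 3 and 72.6 to 82.6% on the other 8 arrays. By scan time and array position in the file headers, slide 1 carried low Se GD replicate 1 with all 3 low Se non-GD arrays, slide 2 carried replicates 1 and 2 of normal Se GD with replicates 2 and 3 of low Se GD, and slide 3 held only replicate 3 of normal Se GD. With the slide as a block, low Se GD is thus set against low Se non-GD through 1 low Se GD array alone. On 2 arrays most of the 35 genes lay between the other replicates of the group: 32 of 35 (91.4%) on low Se non-GD replicate 3 and 28 of 35 (80.0%) on low Se GD replicate 2, against an average of 33.3% for any of 3 arrays. Results are therefore also given without both of these arrays. All 10 B cell and all 10 T cell marker genes were well above background on all 9 arrays.

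Diseased spleens on low selenium had more mRNA of a few enzymes that regenerate reduced glutathione and NADPH and that remove peroxide. Low Se GD exceeded low Se non-GD for Gsr, Me1, Pgd, Prdx1, Prdx3 and Prdx4, by 0.36 to 1.06 on the log2 scale, and no member of the 35 was called lower. These 6 were 17.1% of the members, while 24.9% of all genes tested were called in this comparison, 12.7% as higher and 12.1% as lower. The median difference was 0.25 over the members and 0.08 over all genes, and over the members it was 0.11 without low Se non-GD replicate 2. With the slide as a block, the median was 0.09 over the members and 0.08 over all genes. At an unadjusted p below 0.05, 15 members were higher and 2 lower. The groups did not overlap for 11 members that were higher in low Se GD and 5 that were lower, against 29.5% and 23.4% of all genes. The count of 6 became 14 without normal Se GD replicate 3, which enters only the estimate of the spread, and 3 without any 1 of normal Se GD replicate 1, low Se GD replicates 2 or 3, or low Se non-GD replicates 2 or 3. It was 0 without both in-between arrays (3 at an unadjusted p), when the calls over all genes dropped to 269.

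Within diseased mice, the members went in both directions with selenium supply, and most differences were small. In normal Se GD, Abcc1 was higher and Txn2 lower than in low Se GD. These 2 genes were 5.71% of the members, against 1.26% of all genes called, 0.972% higher and 0.288% lower. At an unadjusted p below 0.05, 6 members were higher and 7 lower. The median difference was -0.06 over the members and 0.00 over all genes. The groups did not overlap for 7 members that were higher in normal Se GD and 7 that were lower, against 17.9% and 11.4% of all genes. Both calls were lost when any 1 array other than normal Se GD replicate 3 was left out (adjusted p 0.056 to 0.212). Without normal Se GD replicate 3 both remained and Me1 was added.

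Normal Se GD differed from low Se non-GD at 14 members, with 12 higher and 2 lower. The higher ones were Slc7a11, Gss, Gsr, Gstm1, Gstm2, Prdx1, Prdx3, Prdx5, Glrx, Sod2, Pgd and Abcc1, and the lower ones Srxn1 and Txn2. This is 40.0% of the members, against 32.3% of all genes, 18.9% higher and 13.4% lower. The median difference was 0.30 over the members and 0.06 over all genes, and groups did not overlap for 16 members that were higher and 4 that were lower, against 28.0% and 21.1% of all genes. The count was 7 without normal Se GD replicate 1, 8 without replicate 2 and 5 without low Se non-GD replicate 3. Without both in-between arrays it was 2 (Gsr and Txn2), or 5.71% of the members against 11.6% of all genes. No slide held both groups, and with the slide as a block, through the low Se GD arrays, 3 calls were left (Gsr, Srxn1 and Txn2), 8.57% of the members against 18.3% of all genes, with a median of 0.17 over the members and 0.13 over all genes. The comparison shares its low Se non-GD arrays with the first and its normal Se GD arrays with the second: 4 members were called in both the first and the third, 2 in both the second and the third, and 19 in none.

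**Figure D1:**
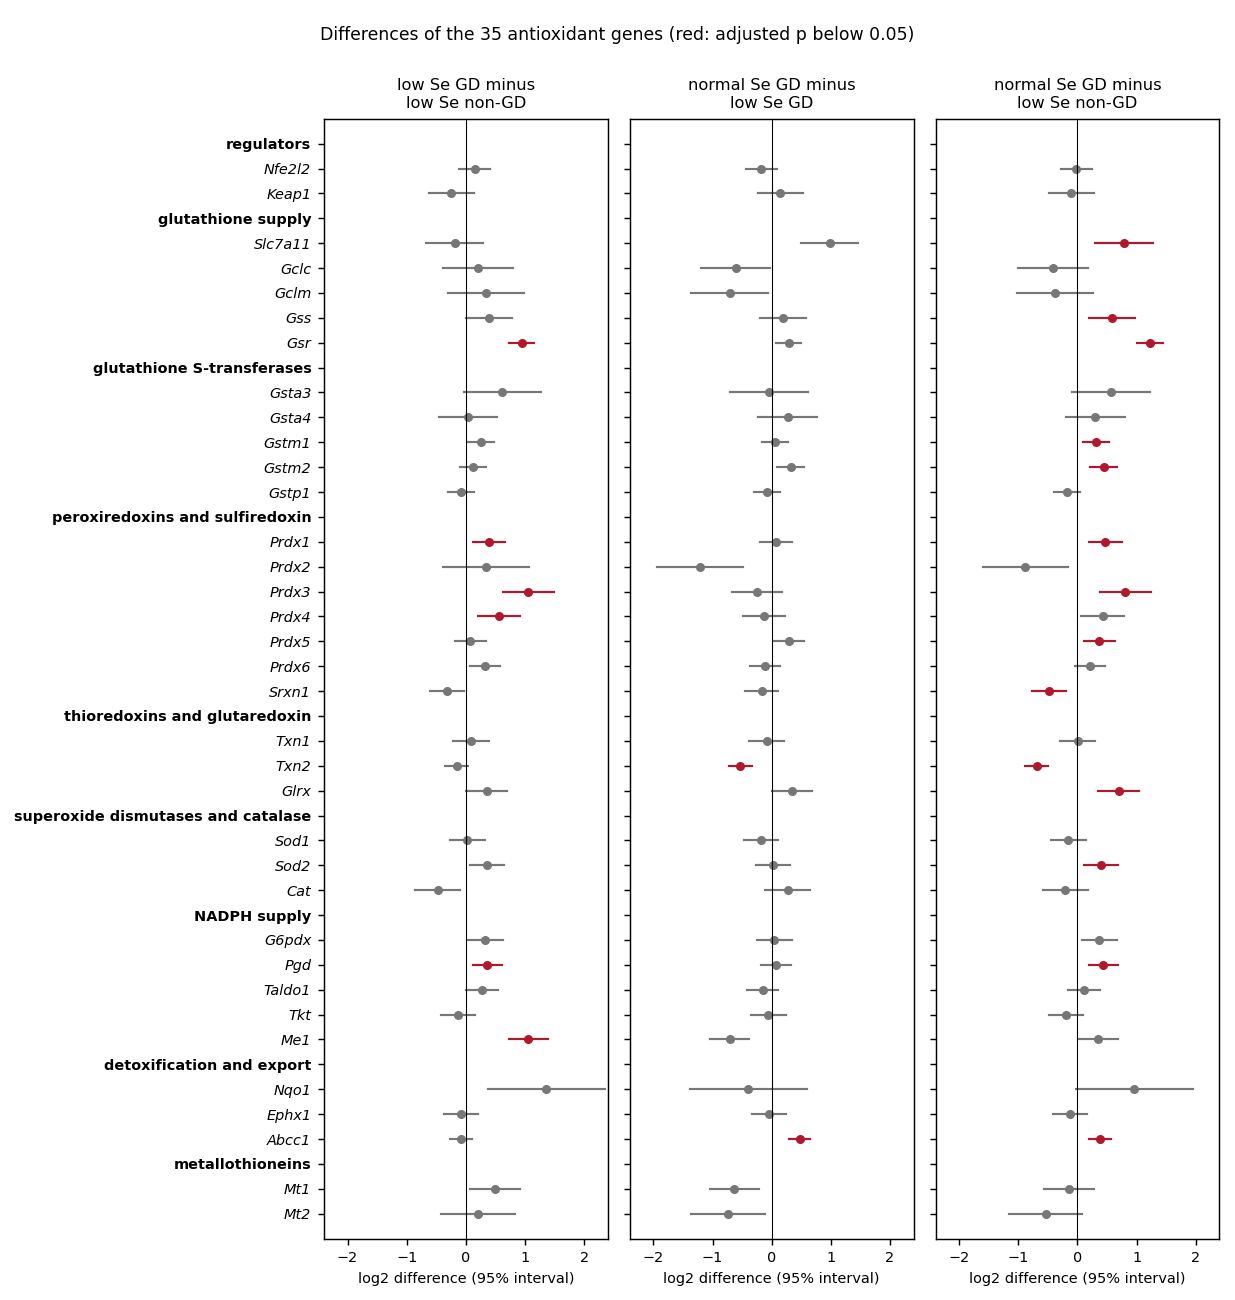
Log2 difference (x axis, with 95% interval from the limma fit) of each of the 35 genes, grouped by role from top to bottom, in the 3 comparisons. Red marks an adjusted p below 0.05: 6 genes in the left panel, all to the right of 0, 2 in the middle panel, 1 on each side, and 14 in the right panel, 2 of them to the left of 0.

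Neither regulator was called in any comparison. Nfe2l2 stood at 1.95, 1.94 and 2.13 in normal Se GD, 2.02, 2.19 and 2.33 in low Se GD, and 2.09, 1.95 and 2.04 in low Se non-GD. The groups overlapped in all 3 comparisons, and the difference was 0.15 ± 0.11 (SE) for low Se GD relative to low Se non-GD, with a 95% interval of -0.11 to 0.41. Keap1 stood at 1.63, 1.49 and 2.15 in normal Se GD, 1.64, 1.63 and 1.55 in low Se GD, and 1.91, 1.81 and 1.87 in low Se non-GD. All 3 low Se GD arrays lay below the low Se non-GD arrays, by 0.25 on average (log2 difference -0.25 ± 0.16 SE, adjusted p = 0.312, limma). Since NRF2 is controlled mainly through protein turnover, these values describe mRNA alone.

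The core of the antioxidant response element, TGACNNNGC, was searched on both strands of RefSeq promoter windows (GRCm38.p6, 250 bases before to 50 after each annotated start). Of the 35 genes, 30 had a window, and 10 of the 30 (33.3%) held the core, against 14.0% of the 27025 genes in the table. Counted by window, these were 10 of 34 (29.4%) against 12.4% of 32851. The 10 genes were Nfe2l2, Gclm, Gsta3, Prdx1, Srxn1, Sod1, G6pdx, Pgd, Me1 and Mt2, of which Prdx1, Pgd and Me1 were called for low Se GD relative to low Se non-GD. In that comparison 24.9% of all genes were called, 12.7% as higher. Bases outside the windows were not searched, so genes left off this list may hold the core elsewhere. A match is a description of the letters, not a binding site. The stretches below are shown because Prdx1, Me1 and Mt2 hold the same 9 letters, TGACTCAGC (on the opposite strand in Prdx1), while Prdx1 and Me1 were called for low Se GD relative to low Se non-GD and Mt2 was not, and because Nfe2l2 and Gclm belong to the control and the synthesis of glutathione. Each is written 5′ to 3′ on the strand of its gene, with the match in capitals.
Prdx1 promoter, chr4:116685440-116685500, + strand: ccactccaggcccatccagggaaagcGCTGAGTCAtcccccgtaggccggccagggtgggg
Me1 promoter, chr9:86695912-86695946, - strand: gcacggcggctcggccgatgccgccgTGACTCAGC
Mt2 promoter, chr8:94172513-94172573, + strand: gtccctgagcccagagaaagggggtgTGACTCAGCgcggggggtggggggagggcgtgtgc
Gclm promoter, chr3:122245397-122245457, + strand: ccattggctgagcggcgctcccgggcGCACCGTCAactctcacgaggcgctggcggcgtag
Nfe2l2 promoter, chr2:75704869-75704913, - strand: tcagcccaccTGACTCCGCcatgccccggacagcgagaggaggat
The match began 133 bases before the start site in Prdx1, 6 in Me1, 79 in Mt2, 134 in Gclm and 240 in Nfe2l2.

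Among the 5 genes of glutathione supply, 1 rose in low Se GD relative to low Se non-GD and 3 were higher in normal Se GD against low Se non-GD. Of all genes, 12.7% and 18.9% were called higher in these comparisons. Gsr encodes glutathione reductase, which uses NADPH to return oxidised glutathione to its reduced form. Its level was 1.21, 1.23 and 1.38 in normal Se GD, 0.94, 1.02 and 1.0 in low Se GD, and 0.13, 0.00 and 0.01 in low Se non-GD. All 6 diseased arrays lay above all 3 arrays without disease, and the arrays on normal selenium lay above those on low selenium. Gsr was 1.92-fold higher in low Se GD than in low Se non-GD (0.94 ± 0.09 SE, adjusted p = 0.00089) and 2.34-fold higher in normal Se GD than in low Se non-GD (1.23, adjusted p = 0.000321). Between the 2 diseased groups the difference was 0.29 (adjusted p = 0.148). A second Gsr probe gave 0.60 (adjusted p = 0.00279) and 0.96 (adjusted p = 0.000437) for the 2 comparisons with low Se non-GD, so its differences were smaller but of the same sign. With the slide as a block, where the estimate rests on 1 low Se GD array, Gsr was 0.89 higher in low Se GD. Without both in-between arrays it was 0.91 higher (adjusted p = 0.062).

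Slc7a11, the cystine carrier of the xCT exchanger that brings in the building block of glutathione, was highest in normal Se GD. Its level was -1.97, -1.99 and -1.89 in normal Se GD, -3.01, -3.09 and -2.69 in low Se GD, and -3.15, -2.31 and -2.75 in low Se non-GD. The 3 normal Se GD arrays lay close together and above all 6 low selenium arrays, which overlapped between the groups. Normal Se GD exceeded low Se non-GD by 0.79 (adjusted p = 0.0234) and low Se GD by 0.98 ± 0.21 SE, with an adjusted p of 0.0679. Gss, glutathione synthetase, had levels of -1.7, -1.72 and -1.56 in normal Se GD, -1.74, -1.87 and -1.92 in low Se GD, and -1.90, -2.58 and -2.25 in low Se non-GD. It was 0.58 higher in normal Se GD than in low Se non-GD (adjusted p = 0.032), without overlap. The Slc7a11 and Gss calls remained in 5 and 3 of the 9 fits that left out 1 array, and both were lost with the slide as a block (0.64 with adjusted p = 0.325, and 0.68 with adjusted p = 0.181).

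Gclc and Gclm are the catalytic and modifier subunits of glutamate-cysteine ligase, the rate-limiting enzyme of glutathione synthesis. Gclc stood at 1.61, 1.71 and 2.01 in normal Se GD, 2.06, 2.48 and 2.61 in low Se GD, and 2.60, 1.68 and 2.27 in low Se non-GD. Gclm stood at 0.44, 0.37 and 0.01 in normal Se GD, 0.60, 1.07 and 1.29 in low Se GD, and 1.12, 0.14 and 0.69 in low Se non-GD. Both subunits had all 3 normal Se GD arrays below all 3 low Se GD arrays, and a wide spread without disease. The differences between normal Se GD and low Se GD were -0.61 for Gclc (adjusted p = 0.244) and -0.71 for Gclm (adjusted p = 0.215).

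**Figure D2:**
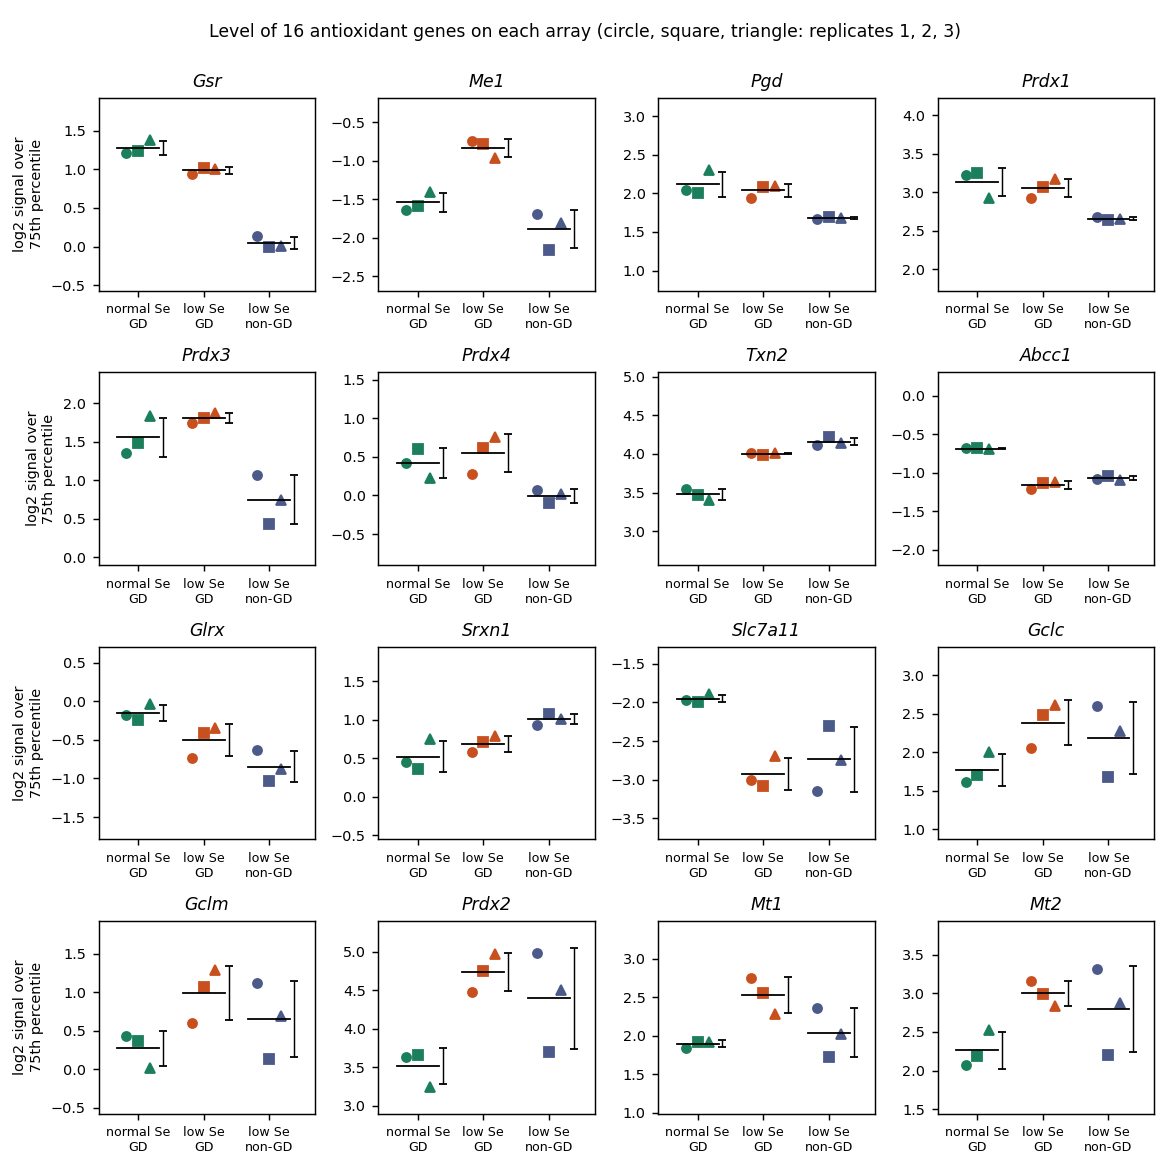
Level of 16 of the 35 genes (y axis, log2 signal over the array's 75th percentile, a span of equal height but different position for each gene) on each array, by group. Points are arrays, horizontal lines group means and bars to the right of the points ± SD (n = 3). Gsr separates the 3 groups, Abcc1 and Slc7a11 are high in normal Se GD, Me1 is high in low Se GD, and Gclc, Gclm, Prdx2 and Mt2 spread widely in low Se non-GD.

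The glutathione S-transferases, join glutathione to electrophiles. None of the 5 was called for low Se GD relative to low Se non-GD (limma, 1 at an unadjusted p below 0.05) or for normal Se GD against low Se GD (1 at an unadjusted p), and 2 were higher in normal Se GD than in low Se non-GD. In the last of these comparisons 18.9% of all genes were called higher. Gstm1 had levels of 0.26, 0.32 and 0.43 in normal Se GD, 0.37, 0.27 and 0.19 in low Se GD, and 0.04, 0.08 and -0.04 in low Se non-GD. Gstm2 had levels of 1.28, 1.30 and 1.5 in normal Se GD, 0.97, 1.06 and 1.1 in low Se GD, and 0.90, 0.97 and 0.89 in low Se non-GD. For both genes the normal Se GD arrays lay above all low Se non-GD arrays, by 0.31 for Gstm1 (adjusted p = 0.038) and 0.44 for Gstm2 (adjusted p = 0.0111). The other Gstm1 probe gave 0.02 and the other Gstm2 probes 0.01 and 0.30 in this comparison, none of them called, and probes of these close paralogs may share targets, so both calls are uncertain. The brightest probes gave 0.40 for Gstm1 (adjusted p = 0.0641) and 0.26 for Gstm2 (adjusted p = 0.127) when the slide was a block. Gsta3 and Gsta4 were 0.62 (adjusted p = 0.155) and 0.04 apart between low Se GD and low Se non-GD. Gstp1 differed by -0.08 there at its brightest probe, with overlap between the groups, while its dimmer probe was 0.68 lower on average (log2 difference -0.68, adjusted p = 0.0179).

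Peroxiredoxins reduce peroxides through a cysteine, and sulfiredoxin, the product of Srxn1, repairs that cysteine when it is over-oxidised. Of the 6 peroxiredoxin genes, 3 rose in low Se GD relative to low Se non-GD, where 12.7% of all genes were called higher. Prdx3, the mitochondrial form, had levels of 1.35, 1.49 and 1.83 in normal Se GD, 1.74, 1.81 and 1.87 in low Se GD, and 1.07, 0.43 and 0.75 in low Se non-GD. All 6 diseased arrays lay above the arrays without disease, with overlap between the diets. The difference was 1.06 ± 0.19 SE for low Se GD (2.08-fold, adjusted p = 0.00611) and 0.81 for normal Se GD (1.75-fold, adjusted p = 0.0133), each against low Se non-GD. Both calls were kept in all 9 fits that left out 1 array, but neither was kept without both in-between arrays. With the slide as a block the differences were 0.99, resting on 1 low Se GD array, and 0.57 (adjusted p = 0.237).

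Prdx1, an abundant cytosolic form, had levels of 3.22, 3.24 and 2.93 in normal Se GD, 2.93, 3.07 and 3.17 in low Se GD, and 2.68, 2.64 and 2.65 in low Se non-GD. Prdx4, the form of the endoplasmic reticulum, had levels of 0.42, 0.61 and 0.22 in normal Se GD, 0.28, 0.62 and 0.76 in low Se GD, and 0.06, -0.10 and 0.01 in low Se non-GD. In both cases every diseased array exceeded every array without disease, and the 2 diseased groups overlapped. Against low Se non-GD, Prdx1 was 0.40 higher in low Se GD (adjusted p = 0.0418) and 0.47 higher in normal Se GD (adjusted p = 0.0174), and Prdx4 was 0.56 higher in low Se GD (adjusted p = 0.0333). With the slide as a block the low Se GD differences were 0.27 for Prdx1 (adjusted p = 0.0522) and 0.29 for Prdx4 (adjusted p = 0.138), and leaving out 1 array kept these 2 calls in 2 and 3 of 9 fits. A second Prdx1 probe gave 0.55 for low Se GD (adjusted p = 0.00681) and 0.93 for normal Se GD (adjusted p = 0.000851).

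Prdx5, a form found in several compartments, had levels of 2.03, 1.99 and 2.32 in normal Se GD, 1.75, 1.81 and 1.90 in low Se GD, and 1.79, 1.7 and 1.74 in low Se non-GD. It was 0.37 higher in normal Se GD than in low Se non-GD (adjusted p = 0.0387), and the low selenium groups overlapped. With the slide as a block the Prdx5 difference was 0.16 (adjusted p = 0.340), and its call was kept in 3 of the 9 fits that left out 1 array. Srxn1 had levels of 0.45, 0.36 and 0.74 in normal Se GD, 0.58, 0.70 and 0.79 in low Se GD, and 0.94, 1.07 and 1.01 in low Se non-GD. All 6 diseased arrays lay below the arrays without disease, opposite to the peroxiredoxins that rose. Srxn1 differed by -0.49 for normal Se GD (adjusted p = 0.019) and by -0.32 for low Se GD (adjusted p = 0.100), each against low Se non-GD. Prdx6, which also has phospholipase activity, was 0.32 higher in low Se GD at its brightest probe (adjusted p = 0.0697). The dimmest of its 3 tested probes was called, at 0.34 for low Se GD (adjusted p = 0.0218) and 0.58 for normal Se GD (adjusted p = 0.00198), and the remaining probe was not (0.10 and 0.19).

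Prdx2 encodes a cytosolic peroxiredoxin that is abundant in red cells. It had levels of 3.63, 3.67 and 3.25 in normal Se GD, 4.47, 4.76 and 4.97 in low Se GD, and 4.99, 3.70 and 4.51 in low Se non-GD. All 3 normal Se GD arrays lay below every low selenium array. The difference from low Se GD was -1.22 ± 0.31 SE (adjusted p = 0.0929) and that from low Se non-GD -0.88 (adjusted p = 0.0654), so neither was called, although the first was the largest difference between the diseased groups among the 35 genes.

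The thioredoxins and glutaredoxin split. Txn2, the mitochondrial thioredoxin that serves PRDX3, had levels of 3.55, 3.47 and 3.41 in normal Se GD, 4.02, 3.99 and 4.01 in low Se GD, and 4.12, 4.22 and 4.15 in low Se non-GD. The 3 groups did not overlap, and normal Se GD was the lowest. Txn2 differed by -0.53 ± 0.08 SE for normal Se GD against low Se GD (1.44-fold lower, adjusted p = 0.0439), by -0.69 for normal Se GD against low Se non-GD (1.61-fold lower, adjusted p = 0.00135), and by -0.16 for low Se GD relative to low Se non-GD (adjusted p = 0.219). The first call was kept in 1 of the 9 fits that left out 1 array and in 5 of 20 alternative fits in all. The second was kept in 9 of 9 and in 19 of 19. Glrx, a cytosolic glutaredoxin that removes glutathione from proteins, had levels of -0.18, -0.24 and -0.03 in normal Se GD, -0.74, -0.41 and -0.35 in low Se GD, and -0.63, -1.03 and -0.88 in low Se non-GD. It was 0.70 higher in normal Se GD than in low Se non-GD (adjusted p = 0.0100), and low Se GD lay between the other 2 group means. The Glrx difference was 0.28 (adjusted p = 0.373) when the slide was a block. Txn1, the cytosolic thioredoxin, differed by 0.08, -0.08 and 0.00 in the 3 comparisons.

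Superoxide dismutases turn superoxide into hydrogen peroxide, which catalase splits. Sod2, the mitochondrial enzyme, had levels of 0.99, 1.15 and 0.91 in normal Se GD, 0.91, 1.01 and 1.04 in low Se GD, and 0.83, 0.44 and 0.60 in low Se non-GD. Every diseased array exceeded every array without disease, by 0.39 for normal Se GD (adjusted p = 0.0441) and by 0.36 for low Se GD (adjusted p = 0.0684). The Sod2 call was kept in 2 of the 9 fits that left out 1 array and lost with the slide as a block (0.33, adjusted p = 0.304). Sod1, the cytosolic enzyme, differed by 0.03, -0.18 and -0.15. The 2 probes of Cat, catalase, disagreed: for normal Se GD against low Se non-GD the brighter gave -0.21 (adjusted p = 0.376) and the dimmer 0.89 (adjusted p = 0.0144), and no direction is given for this gene.

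Of the 5 genes of NADPH supply, 2 rose in low Se GD relative to low Se non-GD, against 12.7% of all genes called higher. Me1, malic enzyme, makes NADPH from malate in the cytosol. Its level was -1.64, -1.59 and -1.40 in normal Se GD, -0.75, -0.78 and -0.96 in low Se GD, and -1.69, -2.16 and -1.81 in low Se non-GD. The 3 low Se GD arrays lay above the 6 others, and normal Se GD lay above low Se non-GD. Me1 was 2.08-fold higher in low Se GD than in low Se non-GD (1.06 ± 0.14 SE, adjusted p = 0.00256), and the 3 probes of the gene gave 1.06, 0.89 and 1.36, all called. Normal Se GD differed from low Se GD by -0.71 (1.64-fold lower, adjusted p = 0.0629) and from low Se non-GD by 0.34 (adjusted p = 0.107). With the slide as a block the first difference was 1.14, resting on 1 low Se GD array, and its call was lost without both in-between arrays.

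Pgd encodes 6-phosphogluconate dehydrogenase, an NADPH-forming enzyme of the pentose phosphate pathway. It had levels of 2.04, 2.01 and 2.31 in normal Se GD, 1.94, 2.09 and 2.10 in low Se GD, and 1.67, 1.69 and 1.68 in low Se non-GD. All diseased arrays exceeded those without disease, by 0.36 for low Se GD (adjusted p = 0.0434, kept in 2 of 9 fits without 1 array) and by 0.44 for normal Se GD (adjusted p = 0.0170, kept in 8 of 9). With the slide as a block these were 0.26, resting on 1 low Se GD array, and 0.20 (adjusted p = 0.180). G6pdx, which catalyses the first step of that pathway, was 0.32 higher in low Se GD (adjusted p = 0.109) and 0.37 higher in normal Se GD (adjusted p = 0.0633). Taldo1 and Tkt, the enzymes of its carbon-shuffling branch, differed by 0.27 and -0.14 for low Se GD relative to low Se non-GD, and neither was called in any comparison.

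**Figure D3:**
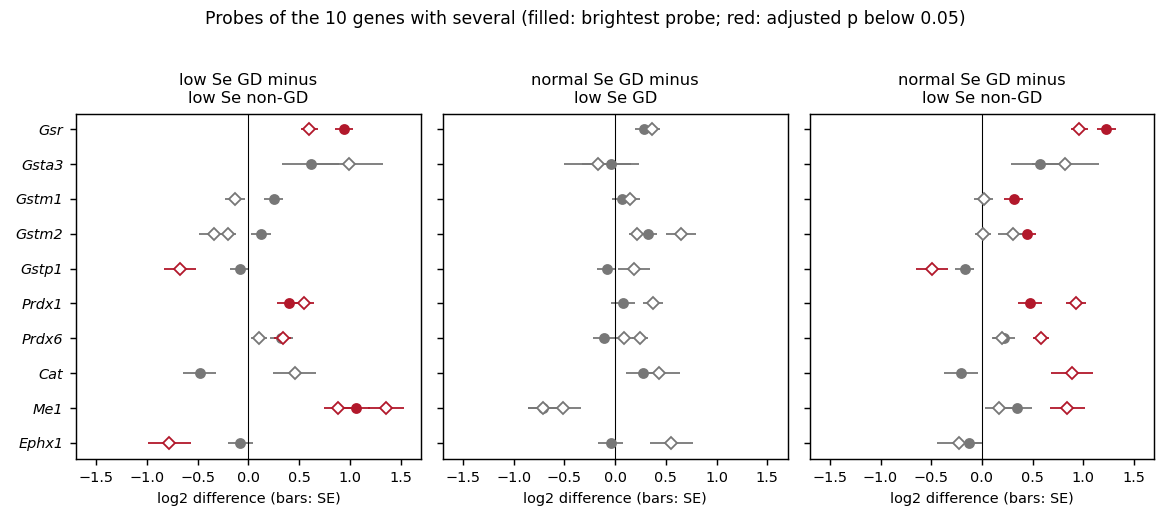
Log2 difference (x axis, bars SE) of each probe for the 10 genes with several tested probes, in the 3 comparisons. Filled circles are the brightest probes, open diamonds the others, and red marks an adjusted p below 0.05 over all probes: the probes of Gsr, Prdx1 and Me1 keep to 1 side in the left panel, those of Cat lie on both sides of 0.

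Abcc1, an exporter of glutathione conjugates, was the 1 member called higher in normal Se GD than in low Se GD. Its level was -0.68, -0.68 and -0.69 in normal Se GD, -1.22, -1.14 and -1.12 in low Se GD, and -1.08, -1.04 and -1.09 in low Se non-GD. Normal Se GD lay above both low selenium groups, with an SD of 0.01 over its 3 arrays. Abcc1 was 1.39-fold higher than in low Se GD (0.47 ± 0.08 SE, adjusted p = 0.0449) and 1.31-fold higher than in low Se non-GD (0.38, adjusted p = 0.00861). When the slide was a block these were 0.45 (adjusted p = 0.0321) and 0.30 (adjusted p = 0.0772). The call against low Se GD was kept in 1 of the 9 fits that left out 1 array and in 5 of 20 alternative fits in all. The call against low Se non-GD was kept in 9 of 9 and in 16 of 19. Nqo1, the quinone reductase often used as a readout of NRF2, had levels of -2.44, -3.19 and -3.17 in normal Se GD, -2.66, -2.52 and -2.42 in low Se GD, and -3.05, -4.87 and -3.76 in low Se non-GD. The low Se GD arrays lay above those without disease, but those without disease spread widely, and the difference of 1.36 ± 0.43 SE was not called (adjusted p = 0.0526). Ephx1, microsomal epoxide hydrolase, differed by -0.08, -0.05 and -0.12 at its brightest probe. Its dimmer probe differed by -0.78 for low Se GD relative to low Se non-GD (adjusted p = 0.0329).

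The metallothioneins Mt1 and Mt2, which bind zinc and copper, had lower levels in normal Se GD than in low Se GD but did not pass the test. Mt1 had levels of 1.84, 1.92 and 1.92 in normal Se GD and 2.74, 2.56 and 2.28 in low Se GD, with 2.36, 1.72 and 2.02 in low Se non-GD. Mt2 had levels of 2.07, 2.19 and 2.53 in normal Se GD and 3.16, 3.0 and 2.84 in low Se GD, with 3.31, 2.21 and 2.88 in low Se non-GD. Neither gene overlapped between the diseased groups, and both overlapped between low Se GD and low Se non-GD. The differences for normal Se GD against low Se GD were -0.63 for Mt1 (adjusted p = 0.116) and -0.74 for Mt2 (adjusted p = 0.190).

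Slide 2 held 2 arrays of each diseased group, which allowed normal Se GD and low Se GD to be set against each other on 1 slide. With these 4 arrays alone, 9 members (25.7%) were called, against 2793 genes (10.6%) in all. The spread then rests on 2 arrays per group, and low Se GD replicate 2, an in-between array, is among them. For Prdx2 the SE was 0.10 in this fit and 0.40 with the slide as a block over all arrays. Abcc1 (0.45) and Slc7a11 (0.91) were higher in normal Se GD, as was the brighter Cat probe (0.51), though the Cat probes disagreed for normal Se GD relative to low Se non-GD. Gclc (-0.89), Gclm (-0.78), Prdx2 (-1.21), Me1 (-0.74), Mt2 (-0.79) and Txn2 (-0.49) were lower, with adjusted p-values of 0.0358 to 0.0415 for these 6. These signs were those of the comparison with all arrays, where only Abcc1 and Txn2 were called. For low Se GD relative to low Se non-GD, the slide block leaves slide 1 and a lone low Se GD array, assumed to vary like the others: 7 members were called with the block, Gsr, Gstm1, Me1, Pgd, Prdx3 and Prdx6 higher and Srxn1 lower, with a median over the members of 0.09. These 7 were 20% of the members, against 28.3% of all genes called with the block, where the median over all genes was 0.08. The count was 0 on slide 1 alone (6 at an unadjusted p).

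Markers of other cells differed between the groups, as some of these genes did. In bulk spleen RNA, fewer cells of a type and less RNA per cell cannot be told apart. The summed signal of 16 erythroid markers other than globins, in units of the array's 75th percentile, was 129, 131 and 152 in normal Se GD, 208, 244 and 285 in low Se GD, and 253, 114 and 182 in low Se non-GD. The order of these sums was the order of Prdx2, Gclc and Gclm within low Se GD and within low Se non-GD. In each of these groups an in-between array lay in the middle for most of the 35 genes. Few orders were then left, so such a match carries little weight. Within normal Se GD it was that of Gclc alone, since replicate 3 had the highest sum and the lowest Prdx2 and Gclm. With the 3 globins included the sums were 879, 706 and 801 in low Se GD, which is not the order of these genes. On every array of normal Se GD the sum without globins, like the level of these 3 genes, lay below that of every low Se GD array. Of 19 erythroid markers tested, 0 were called for low Se GD relative to low Se non-GD (median 0.78, limma, 2 at an unadjusted p below 0.05). For normal Se GD against low Se GD 0 were called (median -0.99), with 8 lower and 0 higher at an unadjusted p (limma). There the groups did not overlap for 14 markers that were lower and 0 that were higher, against 11.4% and 17.9% of all genes. The part of erythroid cells in the values of Prdx2, Gclc and Gclm was not tested.

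The summed signal of 11 fat markers was 5.37, 5.36 and 5.51 in normal Se GD, 77.96, 40.1 and 10.6 in low Se GD, and 8.67, 5.32 and 6.81 in low Se non-GD. Of these 11 genes, 5 were well above background on all 9 arrays. In low Se GD relative to low Se non-GD, 6 were called higher and 1 lower, against 12.7% and 12.1% of all genes. Me1, which fat also expresses, was high on the same 3 low Se GD arrays, with levels of -0.75, -0.78 and -0.96. Its order was that of the fat sum within low Se GD and within low Se non-GD, though not within normal Se GD. Both groups with the same order hold an in-between array, so this match too carries little weight. The part of fat in the Me1 difference was not tested. The 14 macrophage markers summed to 86.9 to 102 in normal Se GD, 80.9 to 87.1 in low Se GD and 47.5 to 54.8 in low Se non-GD. Of these, 8 were called higher in low Se GD than in low Se non-GD and 0 lower, against 12.7% and 12.1% of all genes. Every diseased array thus exceeded every array without disease in this sum, as for members such as Gsr, Me1, Prdx1, Prdx3, Prdx4, Pgd, Sod2 and the brightest Gstm1 probe. The 10 plasma cell markers had the same order, with 52.1 to 57.9 in normal Se GD, 40.6 to 44.6 in low Se GD and 28.3 to 32.9 in low Se non-GD. Sums of the 10 liver markers were also higher on every diseased array, at 20.5 to 22.1, 22.1 to 25.5 and 14.7 to 19.2 in the same groups. Only 3 of these 10 were well above background on all 9 arrays. The 10 B cell markers summed to 115 to 125 in normal Se GD, 97.5 to 102 in low Se GD and 126 to 145 in low Se non-GD. Of these, 4 were called lower in low Se GD than in low Se non-GD, against 12.1% of all genes. In normal Se GD, 2 were called higher than in low Se GD, against 0.972% of all genes. The 10 pancreas markers summed to 1.29 to 1.84, 1.07 to 1.15 and 2.56 to 2.83 in the same groups. On normal Se GD replicate 3, which had the 1.84, only 3 of these 10 were well above background, so that sum is partly background. The part of any of these cell types in the antioxidant genes was not tested.

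**Figure D4:**
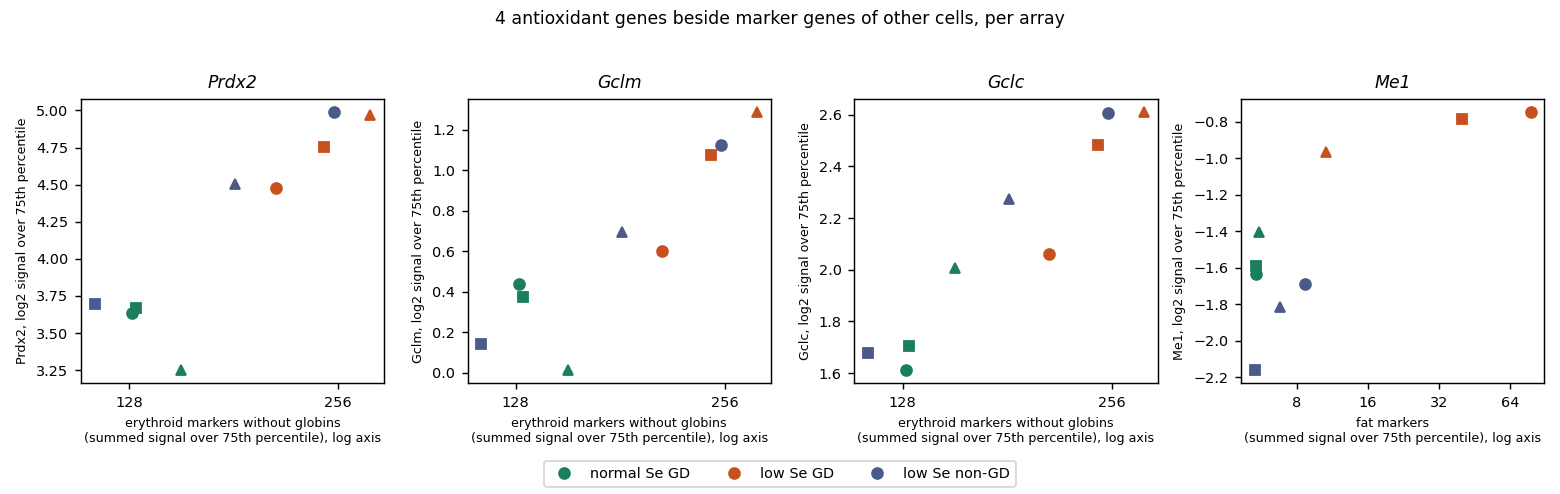
Level of Prdx2, Gclm and Gclc (y axes, log2 signal over the 75th percentile) against the summed signal of 16 erythroid markers, and of Me1 against that of 11 fat markers (x axes, log scale, in units of the 75th percentile), 1 point per array with replicates 1, 2 and 3 as circle, square and triangle. The low Se GD arrays, with erythroid sums of 208 to 285, lie above and to the right of the normal Se GD arrays, with low Se non-GD replicate 1 (253) among them, and their Me1 levels are -0.96 to -0.75 at fat sums of 10.6 to 77.96.

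A wider list of 82 genes of the same pathways, of which 77 were tested is given beside the members. For low Se GD relative to low Se non-GD, 20 were called higher and 4 lower (31.2%, against 24.9% of all genes), with a median of 0.28. Among them were Mgst3 (1.98, adjusted p = 0.0124) and Mgst1 (1.13, adjusted p = 0.00905), both microsomal glutathione transferases, and Chac1, which degrades glutathione (1.97, adjusted p = 0.00325). Also higher were the conjugate exporters Abcc3 (1.2, adjusted p = 0.000694) and Abcc5 (0.89, adjusted p = 0.0037), the NADPH-forming enzyme Idh1 (0.98, adjusted p = 0.00501), the thioredoxin inhibitor Txnip (0.86, adjusted p = 0.0245) and Osgin1 (0.67, adjusted p = 0.00286). Called lower were Gstm7 (-3.86, adjusted p = 0.000254), Gstt3 (-0.91, adjusted p = 0.0157), the extracellular superoxide dismutase Sod3 (-0.84, adjusted p = 0.0231) and Park7 (-0.37, adjusted p = 0.0225).

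Gstm7, a mu-class glutathione transferase, had the largest difference of the 77 genes in this comparison. Its level was -2.78, -3.26 and -2.14 in normal Se GD, -3.49, -3.44 and -3.84 in low Se GD, and 0.17, 0.35 and 0.29 in low Se non-GD. All 6 diseased arrays lay far below the 3 arrays without disease, while its relatives Gstm1 and Gstm2 differed by 0.25 and 0.12 for low Se GD relative to low Se non-GD, neither of them called. Their other probes gave -0.13 for Gstm1 and -0.20 and -0.34 for Gstm2, also not called. Abcc3 had levels of 1.89, 2.04 and 1.84 in normal Se GD, 1.56, 1.64 and 1.75 in low Se GD, and 0.59, 0.33 and 0.43 in low Se non-GD, so that diseased arrays were the high ones.

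For normal Se GD against low Se GD, 0 of these 77 genes were called (limma, 23 at an unadjusted p below 0.05, median 0.06). For normal Se GD against low Se non-GD, 20 were called higher and 4 lower (31.2%, against 32.3% of all genes), with a median of 0.21. Hmox1, heme oxygenase 1, a known NRF2 target that also handles heme from old red cells, had levels of 3.74, 3.90 and 3.76 in normal Se GD, 2.53, 3.19 and 3.59 in low Se GD, and 2.95, 2.29 and 2.65 in low Se non-GD. Normal Se GD lay above every low selenium array, by 1.17 over low Se non-GD (adjusted p = 0.0145) and by 0.69 over low Se GD (adjusted p = 0.221). Also higher against low Se non-GD were Idh1 (1.62), Abcc3 (1.48), Trim16 (0.97), Sesn3 (0.88), Gsk3b (0.87), Osgin1 (0.84) and Abcc5 (0.84), and lower were Gstm7 (-2.99), Mt4 (-0.94), Gstz1 (-0.55) and Park7 (-0.32), with adjusted p-values of 0.00031 to 0.0393 for these 11.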

How the data were processed

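Spleen RNA from 9 samples had been hybridised to Agilent arrays by a 1-colour protocol, per the labels' protocols. Each deposited scanner file gives spot intensities, made with Agilent Feature Extraction, per the file headers, with background subtraction and no scaling between arrays. The authors' deposited table of log2 values, whose scaling the sources used here do not give, served as an alternative. In it the 3 columns of low Se non-GD resembled a differently numbered array of that group most (rank correlation 0.997 to 0.998, with 0.980 to 0.987 for the equally numbered one), which leaves the replicate numbers of that group uncertain, not its membership.

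Processed signals were taken as log2 minus each array's 75th percentile over 43020 non-control spots. Spots with outlier marks were left out, spots of a probe averaged, and each gene given by its probe with the highest mean. Accessions matched to the GRCm38.p6 RefSeq table named 27234 of 39429 probes. Genes well above background on at least 3 of 9 arrays entered limma (version 3.58.1, under R 4.3.3) with all 9 arrays in a single 2-sided lmFit and eBayes fit (6 residual and 1.81 prior degrees of freedom), and the method was tested on simulated data. No spot was saturated (0 on every array). With intensities of 3 arrays per group, the number of arrays limits the precision.

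The members and all gene lists were chosen with earlier results of these data known. Values per array are given for members called in any comparison, for Nfe2l2 and Keap1, and, chosen after their values were seen, for Gclc, Gclm, Prdx2, Nqo1, Mt1, Mt2, Gstm7, Abcc3 and Hmox1. Of the other pathway genes called, at most 8 per direction and comparison are named. Same-numbered replicates did not vary together (correlations of -0.21 to 0.10), and no pairing was used. Since the replicate numbers of low Se non-GD are uncertain, this check cannot decide whether arrays of that group were paired with others. Background correction, scaling, filter, probe choice, slide, samples in the fit and left-out arrays were varied. The background alternative, normexp on spot medians, was chosen after the files were seen, since they hold no spot means.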

Additional observations from a re-analysis of the deposited data

How the results depend on the processing

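No call among the 35 genes changed sign under any alternative that gave it a value (0 sign changes over the 6, 2 and 14 calls), and of 2065 values of single genes 151 lost a call, 55 gained one and none reversed. Several alternatives leave a member's difference as it was, so their signs were fixed in advance. These are both filters, the fit of only the 2 groups, the replicate block and leaving out an array of the third group. They can change only whether a gene is called.

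For low Se GD relative to low Se non-GD the 6 members called became 10 with a filter for all 9 arrays, 10 with only the 2 groups fitted, 0 on slide 1 alone, 0 without both in-between arrays and 3 to 14 without 1 array. Over all genes, 6554 calls became 945 on slide 1 alone, 269 without both in-between arrays and 3443 to 10790 without 1 array, and normexp background turned the split of 3357 higher and 3197 lower into 2245 and 3250. For normal Se GD against low Se GD the 2 members became 4 with the filter for all 9 arrays, 9 on slide 2 alone, 0 to 3 without 1 array, and 0 with normexp, quantile scaling, the authors' deposited table, no filter, only the 2 groups, or without both in-between arrays (limma, 6 to 13 at an unadjusted p). Over all genes, 332 calls became 0 with normexp, quantile scaling, no filter, only the 2 groups, or without both in-between arrays (2392 to 5565 at an unadjusted p), 3 in the deposited table, 1283 with the stricter filter, 1709 with the slide as a block, 2793 on slide 2, 641 with every probe tested and 0 to 1076 without 1 array. For normal Se GD against low Se non-GD the 14 members became 8 with normexp (6 higher, 2 lower), 9 with only the 2 groups, 3 with the slide as a block, 2 without both in-between arrays and 5 to 15 without 1 array, and 8521 calls over all genes became 5548, 4831 with the slide block, 3047 without both in-between arrays and 5417 to 11546 without 1 array.

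With the replicate number as a block, 3, 0 and 11 members and 5137, 0 and 7190 genes were called in the 3 comparisons. This block rests on replicate numbers that are uncertain for low Se non-GD. Normexp moved the median of all genes to -0.16, 0.16 and -0.03, against 0.08, 0.00 and 0.06. The low detection on normal Se GD replicate 3 limits dim genes most.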
